A study of Mus musculus with 11 samples.

Results

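The smooth muscle contractile genes are 33 genes of the contractile apparatus of smooth muscle and its regulation, taken by symbol from the 35683 genes of a mouse colon RNA-seq table, and all 33 were found and passed the filter on low values. RNA came from the whole thickness of the colon wall of 11 mice aged 2 weeks, 6 of genotype Tnfr1-/- and 5 wild type, with no treatment named in the labels. The symbol Tnfr1 is an older name of Tnfrsf1a, the gene of a receptor for tumour necrosis factor. The labels give neither the kind of allele nor the strain, sex, litter or day of dissection, and each library is 1 mouse. The comparison asks whether the muscle genes of the young colon differ between the genotypes.

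Smooth muscle contracts when calcium entering through voltage-gated channels binds calmodulin and switches on a kinase that phosphorylates the regulatory light chain of myosin, while a myosin phosphatase reverses the step. Actin filaments are anchored in dense bodies and in adhesion plaques at the membrane, and intermediate filaments tie these points together. In the colon these cells form the circular and longitudinal layers of the muscularis and the thin muscularis mucosae, and serum response factor with its partner myocardin drives many of the genes by binding a DNA element named the CArG box.

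Upstream sequences of 5 genes are shown because that element is the best known feature shared by contractile genes. They are the 250 bases before a RefSeq gene start on build GRCm38.p6, written 5′ to 3′ on the strand of the gene, with capitals for every CArG box, here including boxes with 1 G or C in the A/T-rich middle. The consensus reads the same on both strands, so each strand was covered by a single search.

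Acta2 (chr19:34255374-34255623, minus strand): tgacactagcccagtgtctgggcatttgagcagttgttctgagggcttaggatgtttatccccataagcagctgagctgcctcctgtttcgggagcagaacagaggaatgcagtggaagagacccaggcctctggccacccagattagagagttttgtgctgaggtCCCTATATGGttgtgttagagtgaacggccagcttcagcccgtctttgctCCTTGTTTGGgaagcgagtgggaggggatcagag
Srf (chr17:46556163-46556412, minus strand): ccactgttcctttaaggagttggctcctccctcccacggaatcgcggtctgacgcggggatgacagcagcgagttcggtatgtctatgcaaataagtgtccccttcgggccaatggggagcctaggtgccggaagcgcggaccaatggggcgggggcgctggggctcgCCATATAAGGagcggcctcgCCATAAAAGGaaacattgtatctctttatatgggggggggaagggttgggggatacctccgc
Myl9 (chr2:156775214-156775463, plus strand): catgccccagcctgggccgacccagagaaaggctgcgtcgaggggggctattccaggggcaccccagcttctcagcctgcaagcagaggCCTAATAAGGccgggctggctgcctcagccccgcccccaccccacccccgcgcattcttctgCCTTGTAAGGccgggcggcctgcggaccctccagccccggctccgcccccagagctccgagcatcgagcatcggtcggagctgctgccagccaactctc
Vcl (chr14:20929148-20929397, plus strand): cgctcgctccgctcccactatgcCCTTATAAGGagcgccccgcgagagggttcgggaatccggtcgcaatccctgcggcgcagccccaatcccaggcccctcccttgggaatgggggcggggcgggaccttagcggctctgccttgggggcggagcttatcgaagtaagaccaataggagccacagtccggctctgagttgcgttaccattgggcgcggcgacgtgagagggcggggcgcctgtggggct
Ppp1r14a (chr7:29289070-29289319, plus strand): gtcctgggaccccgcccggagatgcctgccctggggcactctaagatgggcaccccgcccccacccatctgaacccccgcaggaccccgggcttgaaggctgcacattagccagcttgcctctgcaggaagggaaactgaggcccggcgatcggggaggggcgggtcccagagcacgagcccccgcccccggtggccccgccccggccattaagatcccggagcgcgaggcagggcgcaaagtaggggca

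Srf, the gene of serum response factor itself, had 2 consensus boxes, starting 82 and 62 bases before the gene start. Myl9, the regulatory light chain, had 1 consensus box and 1 with a G, and Vcl, the plaque protein vinculin, had 1 consensus box 227 bases before the start. Acta2, smooth muscle actin, had 2 boxes with 1 G or C each, at 84 and 34 bases. The sequence of Ppp1r14a, an inhibitor of myosin phosphatase, held neither form of the box in this window. The same was true of most of the genes, among them Smtn, Flna, Cald1, Csrp1 and Lmod1. Whether a box goes with the values of a gene was not tested. RefSeq promoters were found for 29 of the 33 genes; Actg2, Myh11, Tagln and Myocd had no entry. A consensus box was present in 4 of these 29 genes (13.8%), Srf, Myl9, Vcl and 1 of 2 Dmd promoters, against 1.62% of 27025 genes with a promoter. With 1 G or C allowed it was 9 of 29 (31.0%) against 9.78%, the additions being Acta2, Cacna1c, Jph2, Pdlim3 and Synm. A match is a string of letters and not a measured binding site.

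Before any result, the libraries differed among themselves. The table holds no read totals, and its columns of TPM scaled by size factors (a level per transcript length) summed to between 934216 and 1055224. The authors' deposited means of natural logs, converted back, give a geometric mean of 401 (Myocd) to 74225 (Acta2) estimated counts behind the most abundant transcript of each gene. Tnfrsf1a fell by 1.57 on the log2 scale, from 67.1 ± 5.04 in wild type (SD, n = 5) to 22.4 ± 3.54 in Tnfr1-/- (n = 6), with all 6 Tnfr1-/- libraries below all 5 wild-type ones, and was the only one of 15079 genes to pass (limma, adjusted p = 8.52e-05). Wild-type replicates 4 and 2 stood at either end of the muscle genes, and Tnfr1-/- replicates 2 and 5 and wild-type replicate 5 were high in markers of skeletal muscle, with values given where they bear on a result. No label says whether libraries share a batch.

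The muscle genes did not differ detectably between the genotypes. None of the 33 passed the test across all genes (limma on log2(value + 0.5), Benjamini-Hochberg adjusted p under 0.05), where 0.00663% of all genes did, and the smallest adjusted p was 0.414. At an unadjusted p under 0.05, 0 genes were higher and 1 was lower, against a background of 9.37% of all genes in either direction and 5.17% in the lower direction. In none of the 33 did the groups separate without overlap, as 1.49% of all genes did. The fitted log2 fold change was above 0 for 26 genes and below 0 for 7, with a median of 0.07, beside 47.9% above 0 and a median of -0.0061 over all genes. The intervals limit how large a difference could be. The 95% interval lay inside a 1.5-fold change for 29 of the 33 genes (82.3% of all genes). It lay inside a 2-fold change for all 33 (93.2% of all genes). The exceptions at 1.5-fold included Actg2 and Cnn1, with upper limits of 0.62 and 0.66 on the log2 scale. The genes rise and fall together, so the 29 are not separate results. In whole tissue a lower share of muscle cells and less RNA per muscle cell cannot be told apart.

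**Figure D1:**
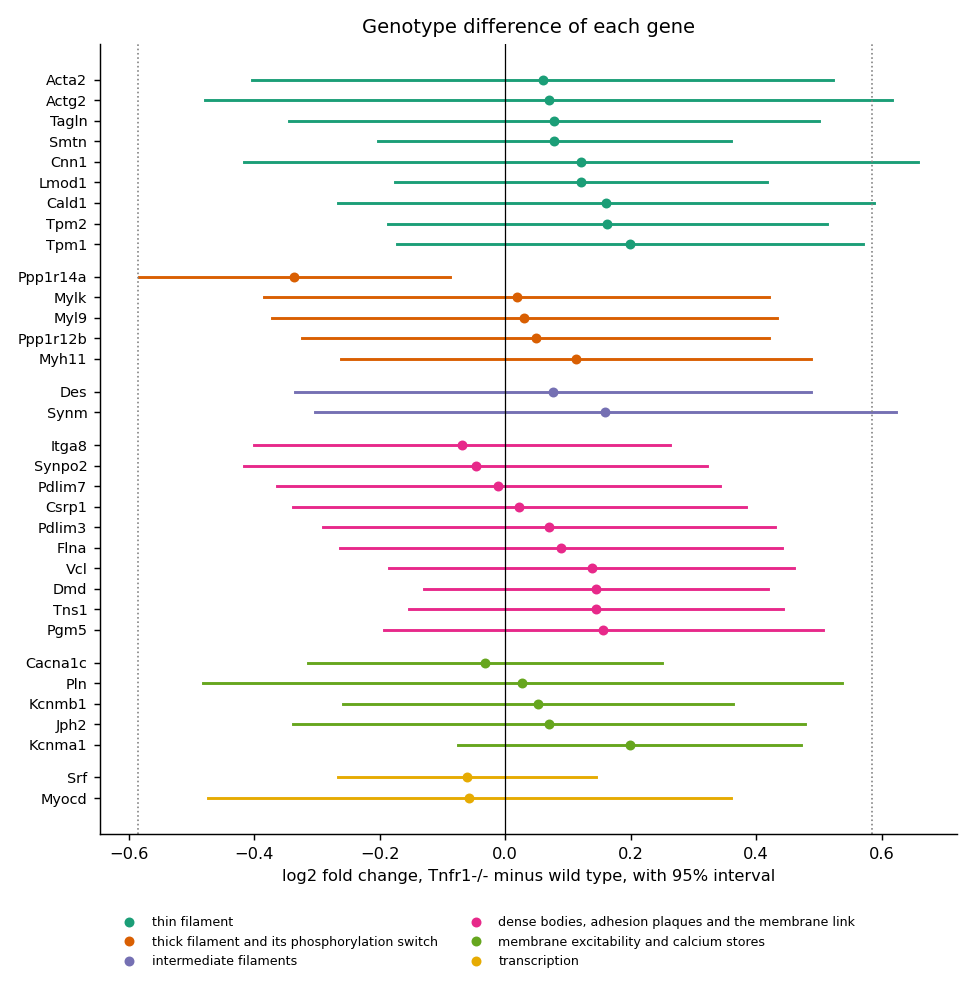
Genotype difference of each gene. Points are limma log2 fold changes on log2(value + 0.5), Tnfr1-/- minus wild type, bars are 95% intervals, colours are roles, and the dotted lines mark a 1.5-fold change in either direction. Ppp1r14a lies lowest at -0.34, and its interval is the one that does not reach 0.

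The count of 26 genes above 0 rested on single wild-type libraries. Without wild-type replicate 4, 32 of the 33 were above 0 with a median of 0.23, and 9 genes had an unadjusted p under 0.05 in the higher direction, where 5.05% of all genes did. These were Kcnma1, Vcl, Tns1, Pgm5, Tpm2, Lmod1, Myh11, Tpm1 and Cald1. The library left out was the highest for 31 of the 33 genes, which rise and fall together, so the 9 are not separate results. Without wild-type replicate 2, 10 were above 0 and 23 below, with a median of -0.05, and without wild-type replicate 5, 18 were above 0 and 15 below, with a median of 0.0036. Wild-type replicates 1 and 2 were known from an earlier look at these data to stand apart in epithelial and fibroblast genes. Without both, 8 were above 0 and 25 below, with 2 genes lower at an unadjusted p under 0.05 where 10.3% of all genes were: Ppp1r14a (-0.53, adjusted p = 0.138) and Itga8 (-0.28, adjusted p = 0.290). These are also the 2 wild-type libraries with the lowest Ppp1r14a, so its larger difference follows from leaving them out. No gene of the 33 passed adjustment in any of these cases.

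As a share of all abundance the 33 genes made up 1.54%, 1.53%, 1.42%, 1.33%, 1.38% and 1.67% of Tnfr1-/- replicates 1 to 6. In wild-type replicates 1 to 5 the shares were 1.37%, 0.922%, 1.41%, 2.38% and 1.11%. All 6 Tnfr1-/- mice lay between wild-type mice, and the wild-type group held both the highest and the lowest value, 2.58-fold apart. The means were 1.48% ± 0.126 (SD, n = 6) and 1.44% ± 0.561 (SD, n = 5). The difference of 0.041 points became 0.276 without wild-type replicate 4 and -0.087 without wild-type replicate 2. The 9 thin filament genes supplied 69.4% of the sum, the 5 thick filament genes 14.2%, the 10 dense body and plaque genes 12.6%, the 2 intermediate filament genes 3.11%, the 5 channel and calcium store genes 0.458% and the 2 transcription factor genes 0.193%.

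**Figure D2:**
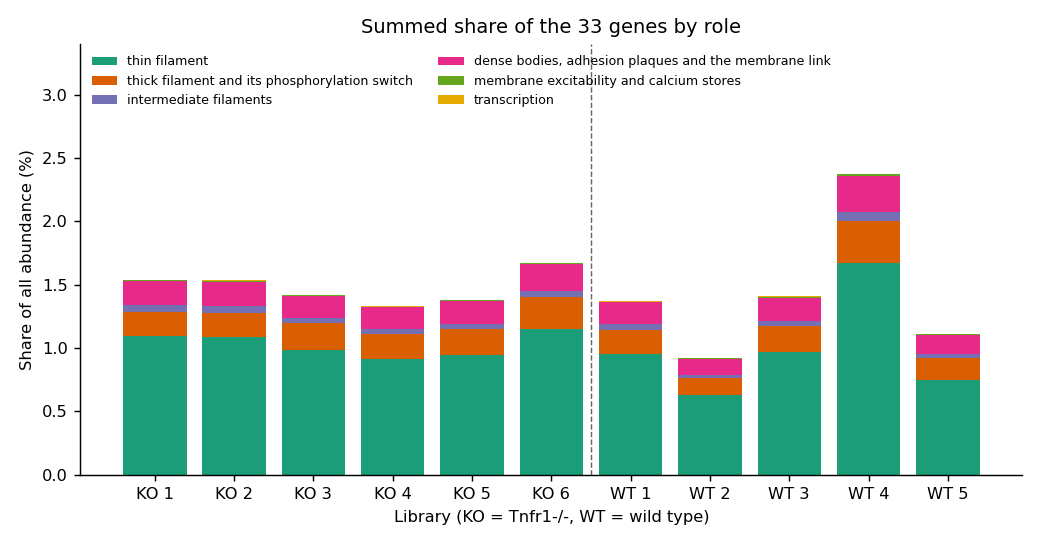
Summed share of the 33 genes by role. Each bar is 1 library, its height is the percentage of all abundance in that library, and the colours are the 6 roles; KO is Tnfr1-/- and WT is wild type. Wild-type replicate 4 reaches 2.38% and wild-type replicate 2 only 0.922%, and the 6 Tnfr1-/- libraries sit between 1.33% and 1.67%.

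Among the thin filament genes, all values are levels in scaled TPM, and fold changes are log2 differences, Tnfr1-/- minus wild type, each from limma with Benjamini-Hochberg adjustment. Actg2, the enteric smooth muscle actin and on average the most abundant of the 33, measured 2405, 1682, 2151, 1759, 1611 and 2439.6 in Tnfr1-/- replicates 1 to 6 and 1960.4, 1135, 2226, 3411 and 1415 in wild-type replicates 1 to 5. Acta2, the actin shared with vascular smooth muscle, measured 1622, 1374, 1679, 1599, 1631 and 2137 in Tnfr1-/- replicates 1 to 6 and 1449.8, 1007, 1808, 2714 and 1426 in wild-type replicates 1 to 5. In both actins wild-type replicate 4 was highest, wild-type replicate 2 lowest, and the Tnfr1-/- values lay inside the wild-type range. Their log2 fold changes were 0.07 (SE 0.25, adjusted p = 0.958) and 0.06 (SE 0.21, adjusted p = 0.956). The ratio of Actg2 to Acta2 was 1.20 ± 0.171 (SD, n = 6) for Tnfr1-/- and 1.19 ± 0.137 (SD, n = 5) for wild type.

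Tagln, the actin-bundling protein transgelin, measured 2053, 1765, 1801, 1711, 1779.7 and 2177 in Tnfr1-/- replicates 1 to 6 and 2008, 1268, 1688, 3007 and 1367 in wild-type replicates 1 to 5. Its groups overlapped in the same way, with a log2 fold change of 0.08 (SE 0.19, adjusted p = 0.941). Cnn1, calponin, which binds actin and restrains the myosin motor, measured 1059, 782, 852, 751, 782 and 1038 in Tnfr1-/- replicates 1 to 6 and 969, 551, 816, 1468 and 509 in wild-type replicates 1 to 5. Wild-type replicate 5 was the lowest library for Cnn1, and wild-type replicates 4 and 5 were 2.88-fold apart. The log2 fold change was 0.12 (SE 0.24, adjusted p = 0.920).

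Tropomyosins lie along the actin filament. Tpm1 measured 1625, 2323, 1586, 1461, 1684 and 1843 in Tnfr1-/- replicates 1 to 6 and 1455, 1084, 1598, 2225 and 1403 in wild-type replicates 1 to 5, and Tpm2 measured 1685, 1920.5, 1554, 1546, 1607 and 1841 in Tnfr1-/- replicates 1 to 6 and 1507, 1030.0, 1503, 2269.9 and 1468 in wild-type replicates 1 to 5. Tpm1 was one of 2 genes whose highest value was not in wild-type replicate 4: it peaked in Tnfr1-/- replicate 2, as did Dmd. The log2 fold changes were 0.20 (SE 0.17, adjusted p = 0.746) for Tpm1 and 0.16 (SE 0.16, adjusted p = 0.780) for Tpm2, and without Tnfr1-/- replicates 2 and 5 they were 0.10 and 0.13. Caldesmon (Cald1), smoothelin (Smtn) and the actin nucleator leiomodin (Lmod1) complete the group, with log2 fold changes of 0.16, 0.08 and 0.12. All 9 thin filament genes were fitted above 0, from 0.06 to 0.20, and none passed (adjusted p from 0.746 to 0.958).

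In the thick filament group, Myh11, the smooth muscle myosin heavy chain, measured 389.9, 370.2, 391, 355, 379.9 and 469 in Tnfr1-/- replicates 1 to 6 and 349, 253, 373, 580.5 and 323 in wild-type replicates 1 to 5. Its values ran from 253 in wild-type replicate 2 to 580.5 in wild-type replicate 4, around a Tnfr1-/- range of 355 to 469, and the log2 fold change was 0.11 (SE 0.17, adjusted p = 0.875). Mylk, the kinase that phosphorylates the regulatory light chain, measured 159, 142, 181, 162, 169.5 and 209.9 in Tnfr1-/- replicates 1 to 6 and 155, 108, 199.9, 250.02 and 155 in wild-type replicates 1 to 5, with a log2 fold change of 0.02 (SE 0.18, adjusted p = 0.984). For Myl9, the light chain itself, the log2 fold change was 0.03, and for Ppp1r12b, a targeting subunit of myosin phosphatase, it was 0.05.

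Ppp1r14a encodes a small protein that, once phosphorylated, inhibits myosin phosphatase and so prolongs contraction. It measured 30.5, 27.5, 27.5, 29.4, 29.8 and 33.2 in Tnfr1-/- replicates 1 to 6 and 30.3, 30.9, 41.0, 47.8 and 40.3 in wild-type replicates 1 to 5. The 3 highest values were all wild type (replicates 4, 3 and 5), and wild-type replicates 1 and 2 lay among the Tnfr1-/- values, so the groups overlapped. The log2 fold change was -0.34 (SE 0.11, adjusted p = 0.414), with a 95% interval from -0.58 to -0.09 and an unadjusted p of 0.0123. It did not pass in any setting tried, with fold changes between -0.25 and -0.53 and adjusted p between 0.105 and 0.653. Its main transcript, Ppp1r14a-201, had the smallest p of the member transcripts in the authors' deposited table too (p = 0.00698, q = 0.918). Relative to Myh11 it was 0.0705 to 0.0830 in Tnfr1-/- and 0.0823 to 0.125 in wild type, where replicate 4 gave the one value inside the Tnfr1-/- range. Of the 33 genes it kept the least constant ratio to Myh11 (SD 0.303 on the log2 scale).

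The intermediate filament genes were desmin and synemin. Des measured 476, 498, 383, 347, 376 and 419.7 in Tnfr1-/- replicates 1 to 6 and 438, 277, 389, 626 and 314 in wild-type replicates 1 to 5, with a log2 fold change of 0.08 (SE 0.19, adjusted p = 0.941). Tnfr1-/- replicates 1 and 2 were the highest Tnfr1-/- libraries, below wild-type replicate 4. The ratio of Des to Myh11 ran from 0.894 to 1.35 over the 11 libraries and was highest in Tnfr1-/- replicate 2. That library was also highest in skeletal muscle markers, and the part of skeletal muscle in Des was not tested. Synm, which anchors desmin filaments, had a log2 fold change of 0.16 (SE 0.21, adjusted p = 0.852).

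The dense body and plaque genes encode the actin crosslinker filamin (Flna), vinculin (Vcl), the integrin subunit Itga8, dystrophin (Dmd), the LIM protein Csrp1, the plaque protein Pgm5, the actin-binding Synpo2, the PDZ-LIM proteins Pdlim3 and Pdlim7, and tensin (Tns1). Fold changes of the 10 genes ran from -0.07 (Itga8) to 0.16 (Pgm5) on the log2 scale, 7 above 0 and 3 below, with no adjusted p under 0.748. Dmd measured 12.8, 19.97, 15.7, 15.3, 18.6 and 17.7 in Tnfr1-/- replicates 1 to 6 and 13.0, 12.9, 16.4, 18.5 and 14.3 in wild-type replicates 1 to 5, with a log2 fold change of 0.14 (SE 0.12, adjusted p = 0.748). Tns1 measured 39.0, 40.2, 32.6, 34.9, 37.4 and 41.0 in Tnfr1-/- replicates 1 to 6 and 34.4, 26.4, 32.2, 49.6 and 30.2 in wild-type replicates 1 to 5, with a log2 fold change of 0.15 (SE 0.14, adjusted p = 0.768). Both genes overlapped between the groups. Flna kept the most constant ratio to Myh11 of all, 1.78 to 2.05 over the 11 libraries (SD 0.064 on the log2 scale).

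Synpo2 gave the 1 ratio to Myh11 that separated the genotypes. It measured 58.7, 56.1, 56.6, 50.4, 53.7 and 68.1 in Tnfr1-/- replicates 1 to 6 and 58.6, 39.2, 65.1, 89.2 and 53.2 in wild-type replicates 1 to 5, and the groups overlapped, with a log2 fold change of -0.05 (SE 0.17, adjusted p = 0.958). Divided by Myh11, the 6 Tnfr1-/- values ran from 0.141 to 0.152 and the 5 wild-type values from 0.154 to 0.175. Such separation occurred for 1 of 32 genes and for 0.106% of the 15078 genes tested besides Myh11, the 32 included. The 2 shares are not like for like: most of the 15078 do not follow Myh11 (median r 0.018), so its spread enters their ratios. Undivided, 1.49% of all genes separated the groups. The nearest values, Tnfr1-/- replicate 2 at 0.152 and wild-type replicate 4 at 0.154, were close together. With Myh11 as a covariate in the fit across all genes, 3 of the 32 had an unadjusted p under 0.05, all lower, where 6.06% of all genes were. These were Ppp1r14a at -0.39 (adjusted p = 0.265), Synpo2 at -0.16 (adjusted p = 0.305) and Myocd at -0.18 (adjusted p = 0.354), and none passed.

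The channel and calcium store genes were the least abundant group apart from the transcription factors. Cacna1c is the pore of the L-type calcium channel, Kcnma1 and Kcnmb1 form the large-conductance potassium channel that relaxes the muscle, Pln (phospholamban) restrains the calcium pump of the sarcoplasmic reticulum, and Jph2 ties that store to the surface membrane. Kcnma1 measured 5.61, 6.29, 5.82, 6.39, 6.33 and 6.26 in Tnfr1-/- replicates 1 to 6 and 4.82, 4.49, 4.58, 7.89 and 5.11 in wild-type replicates 1 to 5. All 6 Tnfr1-/- values were above 4 of the wild-type values, and wild-type replicate 4 was above them all. The log2 fold change was 0.20 (SE 0.12, adjusted p = 0.650), and without wild-type replicate 4 it was 0.33 (unadjusted p = 0.000372, adjusted p = 0.264). That library held the only wild-type value above the Tnfr1-/- ones, so the larger difference and smaller p follow from leaving it out. The other 4 genes ran from -0.03 (Cacna1c) to 0.07 (Jph2).

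Of the transcription factors, Srf measured 20.9, 23.6, 23.0, 23.8, 21.7 and 23.7 in Tnfr1-/- replicates 1 to 6 and 22.5, 19.5, 24.6, 30.3 and 23.2 in wild-type replicates 1 to 5. It varied least, 1.55-fold between its extremes, with a log2 fold change of -0.06 (SE 0.09, adjusted p = 0.878). Myocd, myocardin, measured 4.47, 4.35, 4.33, 3.92, 4.72 and 5.70 in Tnfr1-/- replicates 1 to 6 and 4.15, 3.19, 5.08, 8.38 and 4.23 in wild-type replicates 1 to 5, with a log2 fold change of -0.06 (SE 0.19, adjusted p = 0.955). Myocd spanned 2.63-fold, much as the structural genes did, with the same highest and lowest libraries.

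The muscle genes rose and fell together from mouse to mouse, within the wild-type group above all. Wild-type replicate 4 was the highest library for 31 of the 33 genes and wild-type replicate 2 the lowest for 28, with a typical gene at 1.49 and 0.686 times its geometric mean over the 11 libraries. Wild-type replicate 5 stood at 0.876 and Tnfr1-/- replicate 6 at 1.15, and the other 7 libraries were between 0.961 and 1.02. The log2 levels of the 32 other genes correlated with Myh11 over the 11 libraries with a median Pearson r of 0.92, from 0.42 to 0.98. An r of at least 0.8 was reached by 28 of the 32 (87.5%). It was reached by 2.16% of the 15078 genes tested besides Myh11, the 32 included, whose median was 0.018. With p-values adjusted over the 32 relations computed (permutation test, 100000 resamples, two-sided), 30 passed by Pearson's r and 23 by Spearman's rho.

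**Figure D3:**
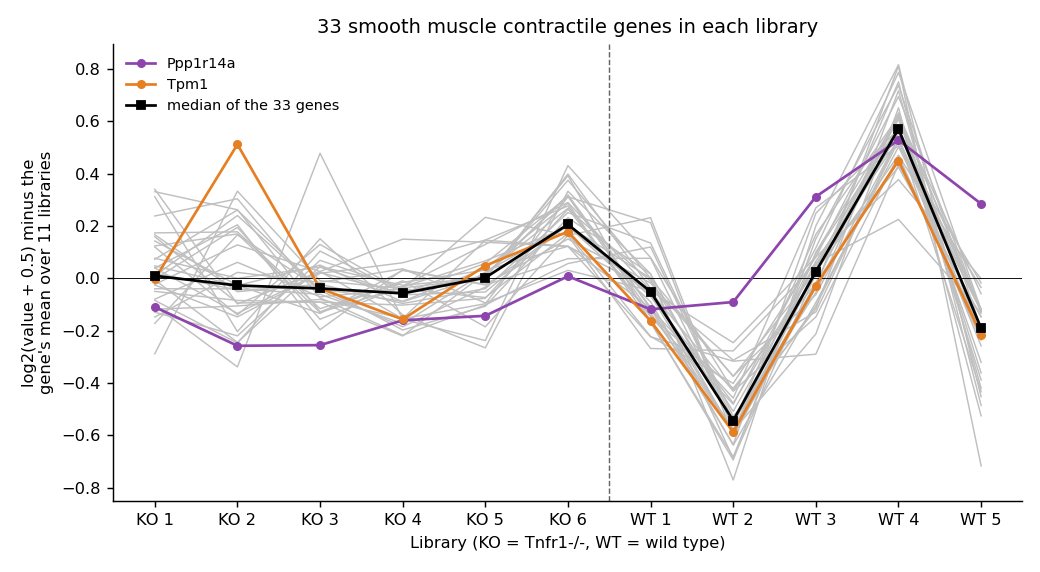
The 33 genes in each library. The vertical axis is log2(value + 0.5) minus the mean of that gene over the 11 libraries; grey lines are genes, the black line is their median, and KO is Tnfr1-/- and WT wild type. Most lines fall together in wild-type replicate 2 and rise together in wild-type replicate 4, Ppp1r14a stays near its mean in wild-type replicate 2, and Tpm1 rises in Tnfr1-/- replicate 2.

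Smtn tracked Myh11 most closely (r = 0.984, rho = 0.936), followed by Flna (r = 0.978, rho = 0.845), Cald1 (r = 0.971, rho = 0.955) and Acta2 (r = 0.965, rho = 0.882). The unadjusted permutation p of these r ran from 1e-05 (Smtn), the smallest that the resamples allow, to 9e-05 (Acta2). At the other end, Ppp1r14a had r = 0.425 (rho = 0.145, permutation p = 0.20 and 0.673) and Dmd r = 0.588 (rho = 0.464, permutation p = 0.0508 and 0.155). Without wild-type replicates 2 and 4, the 2 libraries farthest from the median of Myh11, the median r fell to 0.689 and 6 of the 32 still passed by an exact permutation test: Smtn, Flna, Cald1, Acta2, Csrp1 and Lmod1. At least 0.8 was then reached by those 6 and by 0.272% of the 15078 genes tested besides Myh11, those 6 included. Srf went from r = 0.805 to 0.002, so its relation with Myh11 rested on these 2 mice. Within the 6 Tnfr1-/- libraries alone none of the 32 passed by an exact permutation test, although r was high there for some. Among these were Synpo2 (0.958), Myocd (0.942) and Smtn (0.938). Tnfr1-/- replicate 6 was the highest Tnfr1-/- library for these genes and for Myh11 (469, with the next at 391). Correlations within that genotype were not computed without it.

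**Figure D4:**
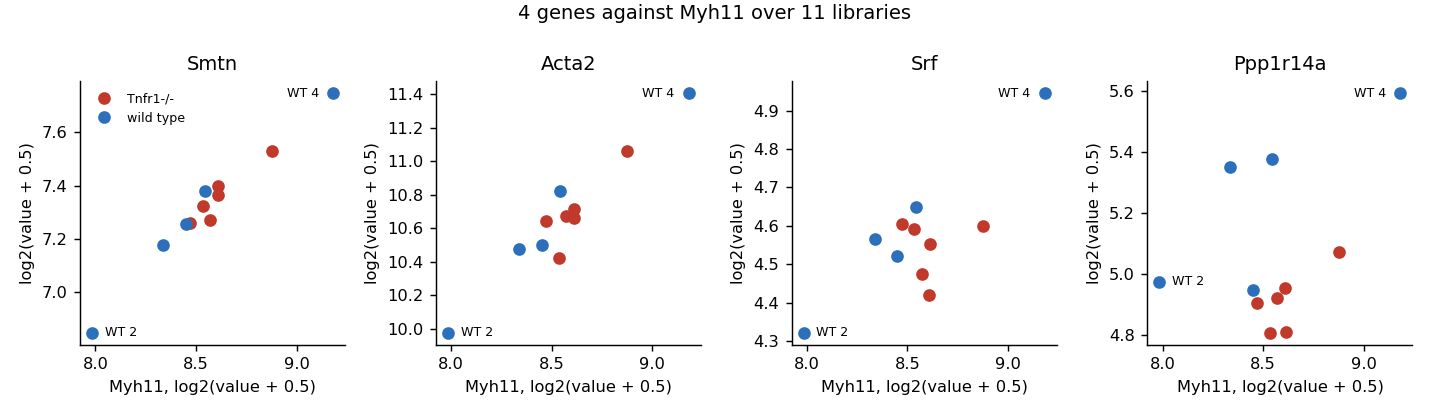
Levels of 4 genes against Myh11, both axes log2(value + 0.5), 1 point per library. Smtn and Acta2 rise with Myh11 across the 11 libraries, Srf does not once wild-type replicates 2 and 4 are set aside, and for Ppp1r14a 3 wild-type libraries lie above the Tnfr1-/- points.

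Markers of other cell types were measured in the same mice. The summed level of 8 pericyte and mural cell markers ran from 141 to 176 in Tnfr1-/- and from 110 to 200.4 in wild type, with an r of 0.778 with Myh11 (rho = 0.391, permutation p = 0.0087 and 0.238). For the sum of 8 fibroblast markers r was 0.739 (rho = 0.536, p = 0.0101 and 0.0945 by permutation), with 2043 to 3120 in Tnfr1-/- and 1655 to 3700 in wild type. For the sum of 10 epithelial markers, all of which passed the filter, r was -0.666 (rho = -0.564, p = 0.0273 and 0.0761 by permutation), with 7146 to 10186 in Tnfr1-/- and 7756 to 12607 in wild type, the highest in wild-type replicate 2. For enteric glia r was 0.644 (rho = 0.491, permutation p = 0.0303 and 0.129), and for enteric neurons 0.597 (rho = 0.427, permutation p = 0.0477 and 0.193). For the remaining lists r ran from -0.488 (cardiac muscle) to 0.518 (endothelium). None of the 11 marker lists passed after adjustment over the 11 relations, the smallest adjusted p being 0.0555. Without wild-type replicates 2 and 4, r was 0.156 for mural cells, 0.259 for fibroblasts and -0.376 for epithelium. It was then 0.067 for enteric glia and -0.00023 for enteric neurons. The part of tissue composition in the muscle values was not tested.

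By the rule of highest r with Myh11 at a mean of at least 5, the 10 genes outside the list most like it were Mrgprf (r = 0.965), Msrb3 (0.964), Tln1 (0.961), Tmem252 (0.956), Stum (0.955), Itga1 (0.953), Ilk (0.952), Plekhh2 (0.951), Chrm2 (0.949) and Clic4 (0.948), all over 11 libraries. Tln1 (talin) and Ilk (integrin-linked kinase) are plaque proteins and Chrm2 is a muscarinic acetylcholine receptor. Without wild-type replicates 2 and 4 the r of these 10 ran from 0.723 (Plekhh2) to 0.955 (Mrgprf).

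The wider contraction pathway gave no call either. Of 66 further symbols listed for it, such as calmodulins, calcium pumps, nitric oxide signalling and receptors, 62 were found and tested, and none passed (34 above 0, 28 below, median log2 fold change 0.01). Unadjusted p under 0.05 was met by 1 gene in the higher and 2 in the lower direction, a smaller share than the 9.37% of all genes. Gna11, a G protein subunit that couples receptors to calcium release, measured 94.1 ± 3.03 in Tnfr1-/- and 109 ± 4.02 in wild type (SD, n = 6 and n = 5), with a log2 fold change of -0.21 (SE 0.04, adjusted p = 0.261). Calm3, a calmodulin gene, measured 384 ± 21.1 in Tnfr1-/- and 434 ± 18.9 in wild type, with a log2 fold change of -0.18 (SE 0.05, adjusted p = 0.355). Stim1, the calcium sensor of the store, and the LIM protein Fhl1 had log2 fold changes of 0.22 and 0.28 (adjusted p = 0.531 and 0.577).

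At the level of transcripts the 33 genes had 270 entries, of which 53 were at 0 in every library and 114 were tested. The most abundant transcript held over 80% of the abundance of the gene in 14 genes, such as Myh11-201 with 94.0% of Myh11 and Mylk-201 with 99.97% of Mylk, and under 50% in 6 genes, such as Cald1-205 with 33.5% of Cald1. With single-end reads of 75 bases, how a gene's abundance is divided among transcripts that share exons is uncertain. None of the 114 passed (limma, smallest adjusted p = 0.519), where 0.00902% of all transcripts did. Unadjusted p under 0.05 was met by 6, 2 higher and 4 lower, where 8.26% of all transcripts met it, and none separated the groups (1.2% of all transcripts). The 5 tested transcripts with the smallest limma p were Ppp1r14a-201 (log2 fold change -0.32 (SE 0.11, adjusted p = 0.519)), Tpm2-205 (-0.55), Tpm1-212 (-2.49), Pgm5-203 (0.63) and Tagln-203 (-0.47). Tpm1-212 was at 0 to 10.2 in Tnfr1-/- and 1.07 to 31.0 in wild type at low and scattered values. In the authors' deposited table, 138 of the 270 entries have a p-value, 5 of them under 0.05 (4.39% of all transcripts with one) and none with a q under 0.05. The 5 in the authors' deposited table are Ppp1r14a-201, Tpm2-205, Tpm1-212, Tagln-203 and Tpm1-204.

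Both tropomyosin genes, and Pdlim3, carry exons that are used in turn. These transcripts were picked after their values were seen, and exons that differ between them are printed because the transcripts behaved differently in the same mice. The sequences are from GENCODE M21 transcripts on GRCm38, each 5′ to 3′ on the strand of the gene and coding throughout.

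Tpm1-215, exon 2 (chr9:67048124-67048249, minus strand): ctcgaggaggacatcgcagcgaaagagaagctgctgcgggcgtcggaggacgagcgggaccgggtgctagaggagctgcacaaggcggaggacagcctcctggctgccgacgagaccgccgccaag
Tpm1-205, exon 2 (chr9:67047786-67047911, minus strand): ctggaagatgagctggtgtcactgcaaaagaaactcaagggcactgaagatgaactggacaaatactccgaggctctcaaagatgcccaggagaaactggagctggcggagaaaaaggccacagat
Tpm2-203, exon 6 (chr4:43519003-43519078, minus strand): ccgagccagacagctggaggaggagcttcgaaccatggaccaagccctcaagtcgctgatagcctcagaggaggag
Tpm2-202, exon 6 (chr4:43518644-43518719, minus strand): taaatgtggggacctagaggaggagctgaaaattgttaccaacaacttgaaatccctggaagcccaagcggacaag
Pdlim3-201, exon 4 (chr8:45908469-45908656, plus strand): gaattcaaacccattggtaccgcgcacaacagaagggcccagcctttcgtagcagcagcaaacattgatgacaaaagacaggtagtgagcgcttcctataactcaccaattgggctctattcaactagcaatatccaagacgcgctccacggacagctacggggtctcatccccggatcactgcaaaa
Pdlim3-203, exon 4 (chr8:45909019-45909086, plus strand): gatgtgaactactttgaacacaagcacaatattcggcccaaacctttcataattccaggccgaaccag

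The paired exons of Tpm1 have the same length of 126 bases and match at 60 of them (47.6%), and those of Tpm2 have 76 bases and match at 41 (53.9%), so reads that lie within them can be told apart. In Pdlim3, exon 4 of Pdlim3-201 has 188 bases, and Pdlim3-203 has in its place an exon 4 of 68 bases and an exon 5 of 264 bases that is not printed. Tpm1-205 also has an exon 9 of 79 bases that Tpm1-215 lacks. Tpm1-215 held 58.2% of Tpm1, Tpm2-203 held 94.7% of Tpm2 and Pdlim3-201 held 88.2% of Pdlim3.

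Tpm1-205 was listed at 719 in Tnfr1-/- replicate 2, 159 in Tnfr1-/- replicate 5, 104 in wild-type replicate 5 and 14.3 in wild-type replicate 3, and at 0 in the other 7 libraries, so that it did not pass the filter for testing. Tpm2-202 measured 48.2, 264, 34.9, 56.5, 93.0 and 36.5 in Tnfr1-/- replicates 1 to 6 and 43.3, 38.1, 32.5, 38.6 and 84.1 in wild-type replicates 1 to 5. Pdlim3-203 measured 4.59, 38.7, 3.47, 4.10, 8.32 and 3.32 in Tnfr1-/- replicates 1 to 6 and 3.44, 3.24, 3.68, 3.47 and 4.48 in wild-type replicates 1 to 5. In all 3, Tnfr1-/- replicate 2 was far above the rest and Tnfr1-/- replicate 5 came second, and for the tropomyosin transcripts wild-type replicate 5 came next. Acta1, the skeletal muscle actin, had the same 3 highest libraries: 230.0, 2266, 164, 305, 605 and 189 in Tnfr1-/- replicates 1 to 6 and 206, 195, 128, 189 and 485 in wild-type replicates 1 to 5. Over the 11 libraries the r with Acta1 on the log2 scale was 1.00 for Tpm2-202 and 0.94 for Pdlim3-203, against -0.01 for Tpm2-203 and -0.23 for Pdlim3-201, given as a description.

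**Figure D5:**
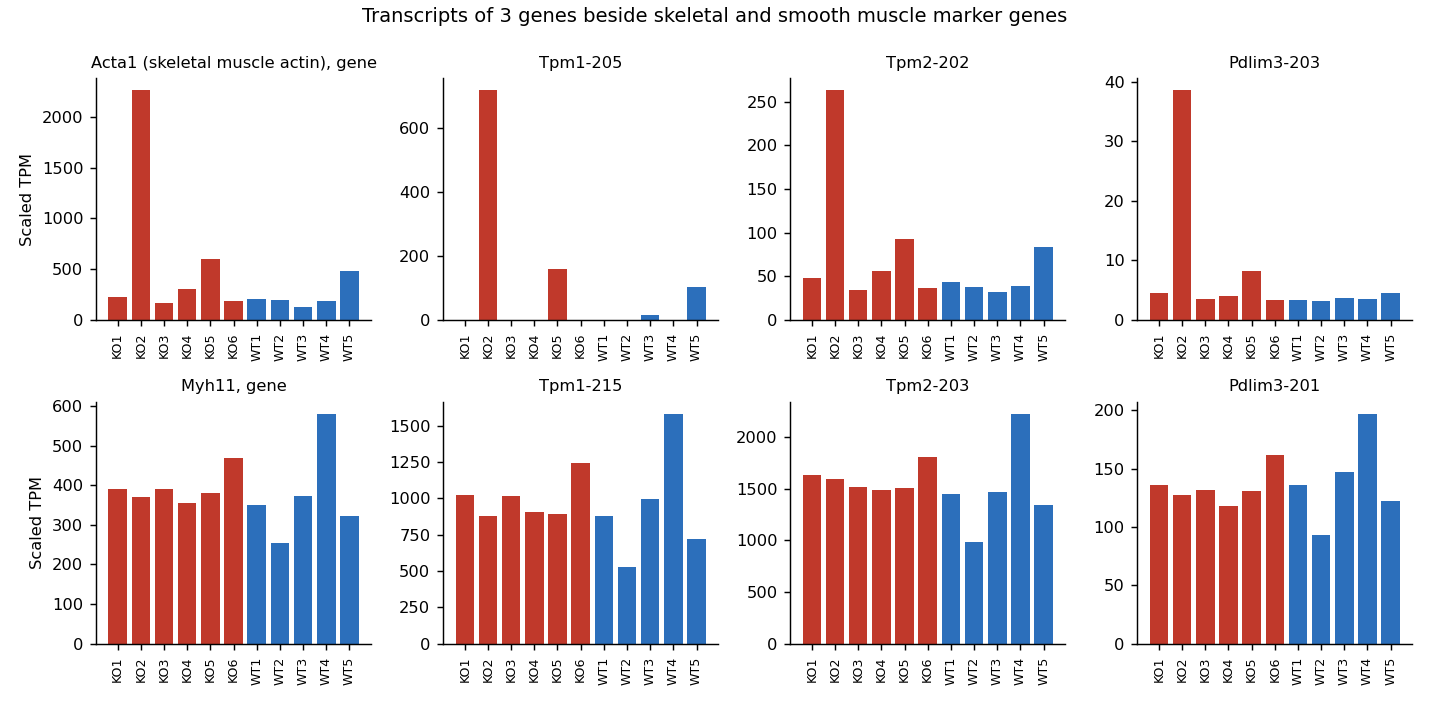
Levels by library (scaled TPM) of 3 transcripts with Acta1 in the upper row, and of the major transcript of the same genes with Myh11 in the lower row; red bars are Tnfr1-/- (KO), blue bars wild type (WT). In the upper row the bar of Tnfr1-/- replicate 2 stands above all others, and in the lower row wild-type replicate 4 is highest.

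All 12 skeletal muscle markers were found, and their summed level was 12032 in Tnfr1-/- replicate 2, 3935 in Tnfr1-/- replicate 5 and 2994 in wild-type replicate 5. The other 4 Tnfr1-/- libraries were between 792 and 1567 and the other 4 wild-type libraries between 619 and 1042. None of the 12 passed, although all were fitted above 0, where 47.9% of all genes were, with a median log2 fold change of 0.81. The sum of 4 cardiac markers stayed between 3.65 and 8.03. The highest value of the whole Tpm1 gene, 2323 in Tnfr1-/- replicate 2, included the 719 of Tpm1-205, while Tpm1-215 in that library was 875, the lowest of the 6 Tnfr1-/- libraries. Without Tnfr1-/- replicates 2 and 5, r of Tpm1 with Myh11 was 0.994 in place of 0.805, and that of Dmd was 0.778 in place of 0.588. The ratio to Myh11 was highest in Tnfr1-/- replicate 2 for Tpm1, Tpm2, Des, Dmd, Pdlim3, Pgm5, Jph2, Tns1 and Ppp1r12b. For the other genes that ratio peaked in other libraries, and the part of skeletal muscle in it was not tested.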

How the data were processed

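RNA was measured in 11 colons by stranded mRNA sequencing with single 75-base reads, per the labels' protocols. Per the submitters' processing notes, the tools were sleuth, kallisto and CASAVA and the build was mm10; versions are not given in the sources used here. The deposited signal per library and transcript was read as TPM scaled by sleuth's size factors, from the tools named and from column sums that differ between libraries (934216 to 1055224); no header or label states the unit. The p-values, q-values, log2 fold changes (a ratio of group means) and natural log means of estimated counts in the table are the authors' own, per the file headers.

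Repeated lines were dropped, leaving 113193 transcripts, and values were summed per Ensembl gene. The 97 transcripts without a gene (0.031% of abundance) were left out. Genes and transcripts at 1 or more in at least 5 libraries entered limma 3.58.1 (trend, two-sided, R 4.3.3) as log2(value + 0.5), with Benjamini-Hochberg adjustment over all 15079 genes or 33276 transcripts. On this scale the fold change of low genes is understated. Correlations, with permutation tests of 100000 resamples or exact ones for 9 or fewer libraries, were computed in Python 3.11.15 (numpy 2.4.6, pandas 2.3.3) and figures drawn with matplotlib 3.10.9. The scripts were tested on simulated data. Transcript names and exons are from GENCODE M21 and promoters from RefSeq, both on GRCm38.

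The 33 genes, their roles, the 11 marker lists and the pathway list were chosen with earlier results of these data known. Values in every library are given for 9 defining genes and the 6 other members with the smallest limma p. Named transcripts are the top 2 of a gene and the 5 with the smallest p, and named outside genes are the 10 most like Myh11 and up to 4 per list with the smallest p. Other features named were chosen after their values were seen. Each library is a mouse, and p-values measure the spread between mice. Replicate numbers of the groups were not taken as pairs, as no label says that they are. Alternatives were other pseudocounts, filters, scalings, weights, a replicate block, Myh11 as a covariate, other anchor genes and libraries left out.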

Additional observations from a re-analysis of the deposited data

Results flagged for a closer look

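In groups of 5 or 6 libraries, a library was singled out where its gap to the nearest other library took up more of the range of the group than Dixon's 95% limit allows. Of 90 groups of values checked, 5 were singled out, where chance alone gives about 1 in 20, or 4.5. Myh11 stood at 469 in Tnfr1-/- replicate 6, with the next highest Tnfr1-/- library at 391. Kcnma1 stood at 7.89 in wild-type replicate 4, with the next wild-type library at 5.11. The summed level of skeletal muscle markers was 12032 in Tnfr1-/- replicate 2, with the next at 3935, and 2994 in wild-type replicate 5, with the next at 1042. The summed level of 4 leukocyte markers was 22.2 in wild-type replicate 2, which was also lowest in 28 of the muscle genes, with the next at 11.5.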

How the results depend on the processing

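No smooth muscle gene and no transcript of one passed adjustment under any alternative run, and leaving out each library in turn gave a range of 0 to 0 for both counts. The replicate numbers were not taken as pairs, as no label says that they are. Deviations of same-numbered libraries correlated at 0.274, -0.006, 0.383, -0.223 and 0.333, and 2 of 5 wild-type libraries were most like their own number. With so few libraries, these values neither show nor exclude pairing. With the replicate block, which leaves Tnfr1-/- replicate 6 without a partner and so without weight in the difference, 0 genes and 0 transcripts passed. Signs of uncalled fold changes did depend on the libraries: over all settings, 89 of 753 values for genes and 106 of 1238 for transcripts changed sign. For genes this was 16 without wild-type replicate 2, 18 without wild-type replicates 1 and 2 together, 15 with Myh11 as a covariate, 8 without wild-type replicate 5, 6 without wild-type replicate 4 and 5 under the block. Of the 32 genes set against Myh11, 30 passed over all 11 libraries, 29 to 31 with single libraries left out, 6 without the 2 libraries farthest from the median and 0 in the 6 Tnfr1-/- libraries alone, where fewer libraries limit the test and r of Kcnma1 turned to -0.0897. The difference in summed share ran from -0.087 to 0.276 points with single libraries left out, and was -0.153 without wild-type replicates 1 and 2. Leaving out Tnfr1-/- replicates 2 and 5 together was chosen after seeing the data, and gave 0 genes, 0 transcripts and 31 correlations.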

Other observations

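The other cell types of the colon wall gave no call either: over the 11 marker lists, no gene passed by limma, and Cldn7, a tight junction protein of epithelium, was the 1 marker with an unadjusted p under 0.05 (533 ± 34.2 in Tnfr1-/- and 613 ± 62.5 in wild type, SD, log2 fold change -0.20, adjusted p = 0.449), against 9.37% of all genes. All 10 epithelial markers (median log2 fold change -0.14) and all 5 enteric neuron markers (median -0.23) were fitted below 0. Summed levels of 5 enteric neuron markers ran from 86.3 to 131 in Tnfr1-/- and from 80.5 to 186 in wild type, where replicates 3 and 4 were highest. Those of 3 markers of interstitial cells of Cajal, the pacemakers of gut muscle, ran from 66.8 to 91.9 and from 69.1 to 89.2. Endothelial sums were 71.5 to 82.7 and 59.5 to 91.5, mesothelial sums 2.11 to 16.2 and 1.35 to 9.16, enteric glia sums 15.4 to 19.6 and 13.5 to 21.8, and leukocyte sums 7.24 to 13.3 and 7.62 to 22.2.

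Between pairs of the 33 muscle genes the median r was 0.833 over 528 pairs, from 0.116 to 0.990, with the genes of a pair measured in the same tissue piece of each mouse. With genotype means removed, r of Ppp1r14a with Myh11 was 0.775 in place of 0.425, while without wild-type replicates 2 and 4 it was -0.215 and without wild-type replicate 4 alone -0.0795.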
